A study of Mus musculus with 6 samples.

Results

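The hedgehog genes of the mouse sciatic nerve are described here: the ligands *Shh*, *Dhh* and *Ihh*, the receptor *Ptch1*, its partner *Smo*, the ligand-binding inhibitor *Hhip*, and the transcription factors *Gli1*, *Gli2* and *Gli3*. These 9 genes were picked by symbol, 1 row each, from the 59485 genes of the expression table, and all 9 had enough signal to be tested. RNA-seq was run on whole sciatic nerves of mice at post-natal day 4 (P4), with 3 control and 3 mutant animals and 1 library per animal. Control mice are labelled wild-type. In the methods of the study this name covers Adar1fl/fl or Adar1fl/+ mice with R26R but without Cre. Elsewhere the study also counts heterozygotes with Cre as controls. The floxed allele and the reporter are thus not particular to mutants, and the exact genotype of each control is not given. Mutant mice are labelled Ht-PA-Cre, Adar1fl/fl and R26R. They carry a Cre transgene whose promoter, that of human tissue plasminogen activator, is active in neural crest (NC) cells. Both *Adar* alleles (the gene of the RNA editing enzyme ADAR1) are floxed, and a YFP reporter marks cells in which Cre has acted. Schwann cells (SCs) derive from the NC, whereas the endothelial cells, macrophages and other cells of the nerve that do not derive from it keep *Adar*, and each value is a sum over all of them. Sex is not given in the labels.

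Hedgehog ligands are secreted proteins that bind Patched receptors and thereby release the membrane protein Smoothened from inhibition. Active Smoothened acts through the primary cilium to turn Gli factors into activators of transcription, and *Gli1*, *Ptch1* and *Hhip* are textbook targets of that response. In peripheral nerve, SCs are known to make Desert hedgehog, which acts on the mesenchymal cells that build the perineurium, whereas Sonic hedgehog is known as a gene that SCs switch on after nerve injury.

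Each library held between 50938349 and 78250094 reads on genes. A value below is a normalised read count, that is reads on a gene divided by the size factor of the library, so that 1 read was worth 0.727 to 1.27. *Adar* itself read 1602, 2066 and 1133 in controls and 11768, 9311 and 9773 in mutants, a log2 fold change of 2.72 ± 0.20 (SE, adjusted p = 4.1e-05). The table has 1 value per gene and does not separate the deleted segment, so this rise does not check the genotype, and every direction below rests on the labels. The threshold used below asks for a limma p of 0.05 or less before adjustment together with a 2-fold or larger difference, the limits stated in the methods of the study. Of 25802 genes tested, 24.2% passed in either direction, 13.9% as higher and 10.4% as lower in mutants. At an adjusted p at or under 0.05 with no limit on size, 35.0% passed, and in 49.2% the values of the genotypes did not overlap.

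Of the 9 hedgehog genes, 2 passed the threshold, against 24.2% of all genes. These were *Shh* and *Hhip*, both higher in mutants. *Dhh* and *Smo* were lower in mutants at an adjusted p under 0.05 but changed by less than 2-fold. At an adjusted p at or under 0.05 with no limit on size, 4 of the 9 passed, against 35.0% of all genes. *Gli1*, *Gli2*, *Gli3*, *Ptch1* and *Ihh* did not pass either test. The values did not overlap between genotypes for 5 of the 9 (*Shh*, *Hhip* and *Gli2* higher, *Dhh* and *Smo* lower), against 49.2% of all genes. The median log2 fold change of the 9 was 0.29, against 0.03 for all genes tested.

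**Figure D1:**
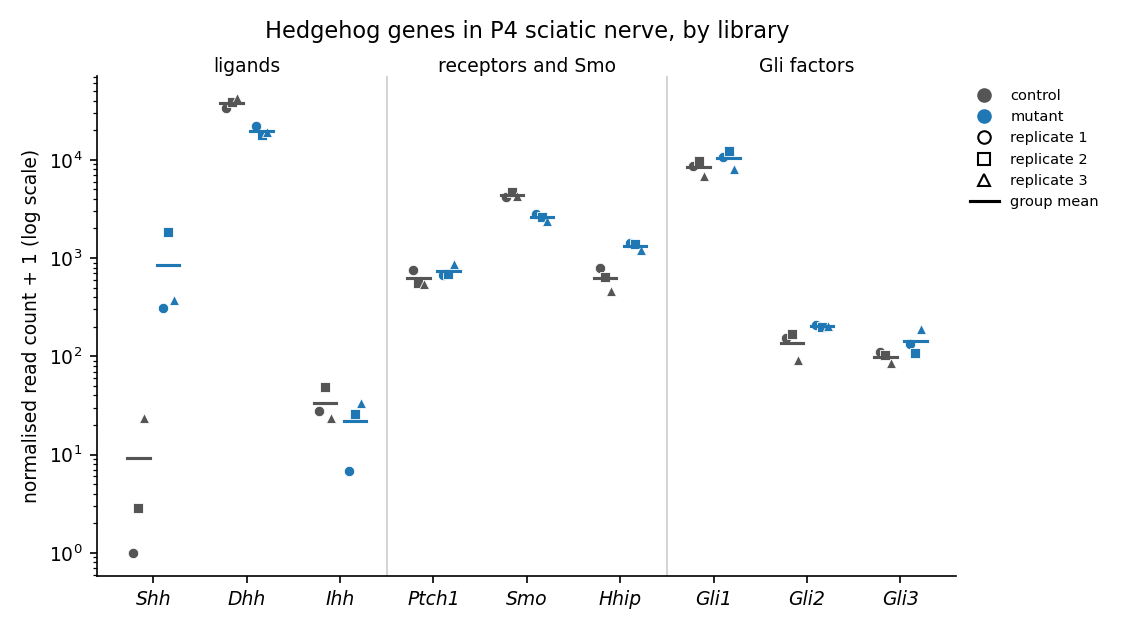
Normalised read count plus 1 (log axis) of the 9 hedgehog genes in each of the 6 libraries, with gray for controls, blue for mutants, a symbol per replicate number and a line at each group mean. *Shh* lies between 0 and 22.8 in controls and between 313 and 1834 in mutants, *Dhh* is the ligand with the highest value in every library, and the values of *Gli1*, *Ptch1*, *Gli3* and *Ihh* overlap between genotypes.

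The ligands were read apart by sequence. The longest stretches that their coding sequences share are shown because they set whether a read of *Shh* could be counted as *Dhh*. In the GENCODE vM21 transcripts (GRCm38), the longest exact run common to *Shh* and *Dhh* had 17 bases, that common to *Shh* and *Ihh* 17 bases and that common to *Dhh* and *Ihh* 16 bases, all within coding sequence and far below the read length of 130 bases. The runs, 5′ to 3′, are as follows.
Shh and Dhh: ttcgactgggtctacta
Shh and Ihh: atgaaccagtggcctgg
Dhh and Ihh: gctgcgggccgggccg
The Gli factors, which share their DNA-binding zinc fingers, had common runs of 23 bases (*Gli1* and *Gli2*), 14 bases (*Gli1* and *Gli3*) and 25 bases (*Gli2* and *Gli3*), all shorter than a read. The longest of these was as follows.
Gli2 and Gli3: aagaaggagttcgtgtgccgctggc

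*Shh* (GSMG0030293, mm10 chr5:28456815-28467102, minus strand) was nearly silent in control nerves, with normalised counts of 0, 1.89 and 22.8 in control replicates 1, 2 and 3, from 0, 2 and 18 reads. Mutant replicates 1, 2 and 3 had normalised counts of 313, 1834 and 373, from 430, 1901 and 377 reads. Every mutant library lay above every control library, and mutant replicate 2 stood far above the other mutants. The mean rose from 8.23 ± 12.7 to 839.9 ± 862 (SD, n = 3 each), a log2 fold change of 7.19 ± 1.14 (SE, limma adjusted p = 0.00177) with a 95% confidence interval of 4.58 to 9.81. It ranked 46 by fold change among the 3580 genes that passed the threshold as higher. The size of the rise depended on single libraries, at 6.18 without control replicate 1, 8.46 without control replicate 3 and 6.39 without mutant replicate 2. It also depended on the constant added to the low control values, at 8.49 or 5.28 with 0.1 or 10 in place of 1. Under each of these it passed the threshold. An unnamed gene on the opposite strand of the *Shh* locus had a normalised count of at most 23.2 in any library, and 9530036O11Rik, also on the opposite strand, at most 0.989.

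*Dhh* (GSMG0014486, mm10 chr15:98891155-98898542, minus strand) had normalised counts of 33639.7, 38675 and 42065 in controls and of 22158, 17789.9 and 19077 in mutants. The groups did not overlap. The mean went from 38126 ± 4239 to 19675 ± 2244 (SD, n = 3 each), a log2 fold change of −0.95 ± 0.12 (SE, limma adjusted p = 0.00049), just short of 2-fold, with a 95% confidence interval of −1.22 to −0.68. The difference reached 2-fold without control replicate 1 or without mutant replicate 1, at −1.04 in both cases, and at −1.02 when the libraries were rescaled to the same 75th percentile. *Ihh* (GSMG0001765, mm10 chr1:74945317-74951674), the ligand known from cartilage and bone growth, had normalised counts of 26.7, 47.2 and 22.8 in controls and of 5.82, 25.1 and 32.6 in mutants, and the groups overlapped (log2 fold change −0.80 ± 0.72, adjusted p = 0.421). Without mutant replicate 1, its lowest library, the value was −0.10.

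In the nerve of both genotypes, *Dhh* made up most of the ligand transcript. *Shh* took 0% of the summed reads of the 3 ligands in control replicate 1 (0 of 30318, which allows a share of up to 0.00990%, taken as 3 reads, or 0.0127% as the upper Wilson limit), 0.00488% in control replicate 2 and 0.0542% in control replicate 3. In mutants it took 1.39% (95% Wilson interval 1.27% to 1.53%), 9.33% (8.94% to 9.74%) and 1.91% (1.73% to 2.11%). These limits take each read as independent, and are too narrow if both mates of a read pair were counted. *Dhh* still outnumbered *Shh* by 70.8, 9.70 and 51.2 reads to 1 in mutant replicates 1, 2 and 3. With 1 added to each value, the log2 ratio of *Shh* to *Dhh* was −15.04, −13.71 and −10.79 in controls and −6.14, −3.28 and −5.67 in mutants. Control replicate 1 had no *Shh* read, so its ratio is set by the added 1 and is no measured ratio. The difference of 8.15 (two-sided exact permutation p = 0.1, the smallest that 3 against 3 allows) depends on it too, and was 9.45 or 6.23 with 0.1 or 10 added. The summed normalised count of the 3 ligands was 38167 ± 4250 in controls and 20536 ± 1682 in mutants (SD, n = 3 each), a ratio of 0.538, with no overlap between genotypes (two-sided exact permutation p = 0.1). Divided by exon length, the sum was 8681 ± 967 per kb in controls and 4775 ± 342 per kb in mutants, a ratio of 0.550.

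**Figure D2:**
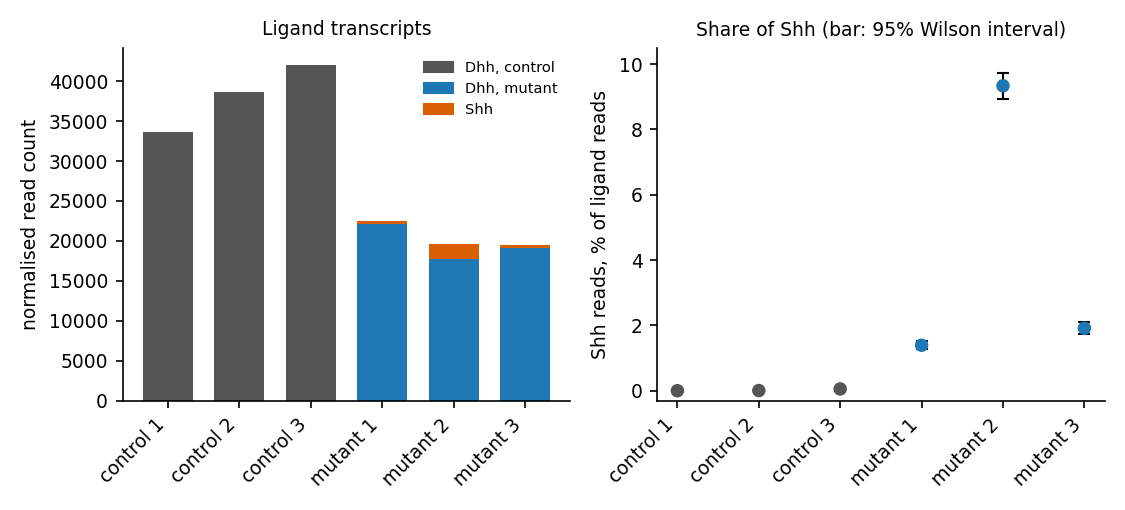
Left, stacked bars of the normalised read count of *Dhh* (gray in controls, blue in mutants) and *Shh* (orange) in each library, *Ihh* being too low to draw. Right, *Shh* reads as a percentage of the reads of the 3 ligands, with 95% Wilson intervals for counting error, each read taken as independent. *Dhh* lies between 33639.7 and 42065 in controls and between 17789.9 and 22158 in mutants, and the *Shh* share is highest in mutant replicate 2, at 9.33%.

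Markers of other cell types moved with the genotype beside *Shh* and *Dhh*. In bulk nerve, fewer cells of a type and less RNA per cell cannot be told apart. The summed normalised count of 5 SC markers was 42039 to 44914 in controls and 20011 to 26912 in mutants. Of these 5, *S100b* (log2 fold change −3.07) and *Erbb3* (−1.55) fell, *Sox10* was at −0.71, *Foxd3* at −0.38 and *Cdh19* at 0.13, so that the −0.95 of *Dhh* lay within their range. The 6 perineurial markers summed to 16996 to 20279 in controls and 15975 to 18410 in mutants, with *Moxd1* higher (3.09) and *Itgb4* lower (−1.62). This sum hides opposite moves, as mean *Itgb4* went from 9176 to 2956 and mean *Cldn1* from 7100 to 10309. Under 2-fold but without overlap between genotypes were *Cldn1* (0.54, limma adjusted p = 0.00723) and *Slc2a1* (−0.27, limma adjusted p = 0.0821). Sensory neuron markers summed to 307 to 420 in controls and 825 to 1054 in mutants, with *Scn10a* at 0 in all controls. Epithelial markers summed to 16.1 to 95.5 and 132 to 217, with *Dsg3* at 0 in all controls. T or NK cell markers summed to 84.9 to 175 and 355 to 516, with *Cd8a* and *Ncr1* at 0 in all controls, and skeletal muscle markers to 3132 to 17205 and 19586 to 153575. The genes of these 4 lists all had a log2 fold change above 0, and 4 of 5, 4 of 6, 5 of 6 and 4 of 6 passed the threshold as higher, against 13.9% of all genes. Fibroblast markers summed to 1.78e+06 to 2.11e+06 in controls and 725823 to 1.07e+06 in mutants, where *Col1a1* (−1.10) and *Col3a1* (−1.22) fell and the other 5 of 7 did not pass. These collagens made up most of the sum, with control means of 1.24e+06 and 678876. The other 5 were *Dpt* (0.92), *Pi16* (0.19), *Pdgfra* (0.16), *Dcn* (0.005) and *Lum* (−0.43). Macrophage markers summed to 9001 to 12239 in controls and 4153 to 5881 in mutants, with *Mrc1* (−2.27) and *Csf1r* (−1.25) lower and *Fcgr1* (1.58) higher. The sums of 5 endothelial markers (12696 to 18824 and 17789 to 23583) and 4 mural cell markers (21232 to 30765 and 20027 to 28717) overlapped between genotypes, and none of these genes reached the threshold. All 5 endothelial markers lay above 0, and *Kdr* (0.81, adjusted p = 0.0331) and *Emcn* (0.57, adjusted p = 0.0339) did not overlap between genotypes, nor did the mural marker *Cspg4* (0.31, adjusted p = 0.088). *Col2a1*, the cartilage collagen, fell by 5.88 on the log2 scale and made up most of the sum of the cartilage list in controls. *Col10a1* was also lower (−1.83), whereas *Comp* (0.77) and *Acan* (−0.45) did not pass and *Matn1* was too low to test. The part of these cells in the values of *Shh*, *Dhh* and *Ihh* was not tested. Adipocyte markers did not separate the genotypes, at 7.56 to 1596 in controls and 13.8 to 6464 in mutants, but were highest in mutant replicate 2, the library with the most *Shh*. Control replicate 1, with the next highest adipocyte sum, held no *Shh* read.

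**Figure D3:**
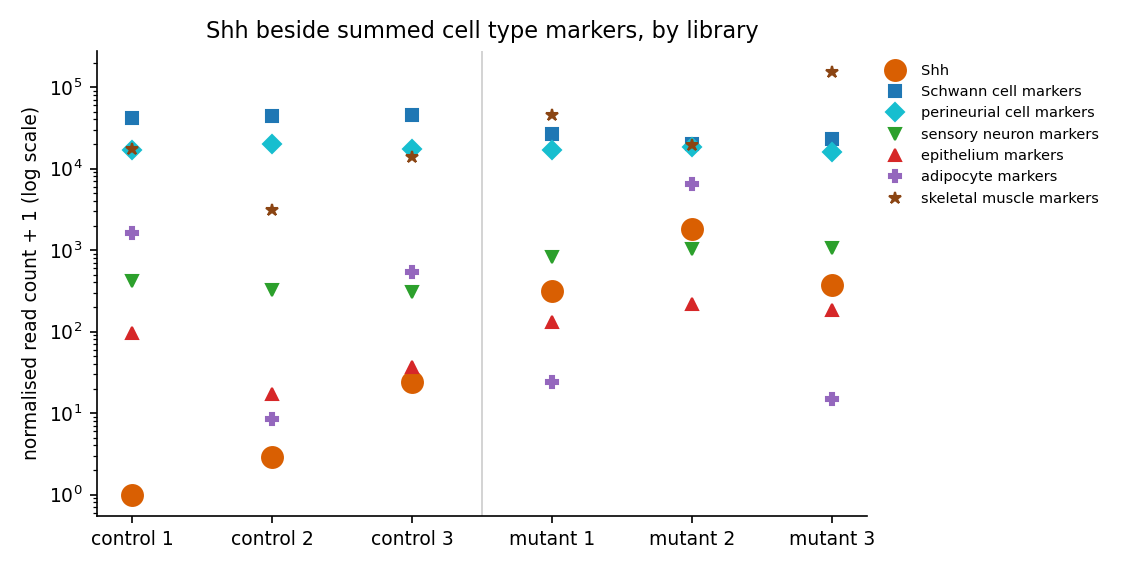
Normalised read count plus 1 (log axis) of *Shh* (large orange circles) beside the summed values of 6 marker lists in each library, controls to the left of the line and mutants to the right. SC markers are lower and sensory neuron, epithelial and skeletal muscle markers higher in all 3 mutants, while adipocyte markers peak in mutant replicate 2 at 6464.

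By the root mean square difference of log2 profiles over the 6 libraries, each gene taken relative to its control mean and compared among 16648 named genes, the genes nearest to *Shh* were *Kng2* (0.954), *Elobl* (1.14), 9530053A07Rik (1.19), *Glp2r* (1.34) and *Slc16a11* (1.35). *Kng2* had normalised counts of 0, 0 and 5.07 in controls and of 214, 997 and 535 in mutants, highest in the same mutant library as *Shh*. The genes nearest to *Dhh* were *Cc2d1b* (0.0311), *Plce1* (0.0318), *Pomgnt1* (0.0442), *Higd2a* (0.0486) and *Lamc1* (0.0508). *Lamc1*, which encodes a laminin chain of the basal lamina, had normalised counts of 31518, 32540.4 and 37569 in controls and of 20206, 16017 and 16474 in mutants. *Gdnf*, the injury gene that the study names together with *Shh*, had normalised counts of 57.7, 49.1 and 40.6 in controls and of 4546, 5382 and 5538 in mutants. Its log2 fold change of 6.69 ± 0.18 (SE, adjusted p = 8.4e-07) was close in size to that of *Shh* but with a far smaller spread between the mutants.

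On the receiving side, the genes for the receptor and its partner were present in both genotypes. *Ptch1* (GSMG0010792, mm10 chr13:63508329-63573460), the main receptor, had normalised counts of 756, 557 and 547 in controls and of 668, 680.2 and 870.4 in mutants, and the groups overlapped (log2 fold change 0.26 ± 0.18, adjusted p = 0.306, 95% confidence interval −0.16 to 0.68). A pair of unnamed genes lies on its own strand, one at 53.2 to 101 in all libraries and the other at most 18.8. *Smo* (GSMG0031603, mm10 chr6:29735497-29761366, plus strand), which carries the signal into the cell, had normalised counts of 4166, 4684 and 4314 in controls and of 2782, 2614 and 2388 in mutants. The groups did not overlap, and the log2 fold change was −0.76 ± 0.10 (SE, limma adjusted p = 0.000711), under 2-fold. *Hhip* (GSMG0038640, mm10 chr8:79965852-80058008, minus strand), which encodes a membrane protein that binds hedgehog ligands and dampens the pathway, had normalised counts of 784, 648 and 466 in controls and of 1407, 1388 and 1195 in mutants. It rose in all 3 mutants above all controls, by a log2 fold change of 1.10 ± 0.20 (SE, limma adjusted p = 0.00314). Without control replicate 3 the change was 0.89, under 2-fold, and then *Shh* alone of the 9 passed the threshold.

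None of the Gli factors passed the threshold. *Gli1* (GSMG0004743, mm10 chr10:127329882-127341974), both a target and an activator of the pathway, had normalised counts of 8620.4, 9676 and 6896 in controls and of 10602, 12338 and 8110.4 in mutants. Mutant replicate 3 lay below control replicates 1 and 2, so the groups overlapped (log2 fold change 0.29 ± 0.17, adjusted p = 0.226), and the 95% confidence interval of −0.10 to 0.69 held no change of 2-fold. *Arhgap9*, on the opposite strand of this locus, had at most 211 in any library. *Gli2* (GSMG0001984, mm10 chr1:118834061-119053619), the main activator, had normalised counts of 151, 169 and 91.2 in controls and of 207, 196 and 201 in mutants. These did not overlap, but the log2 fold change of 0.60 ± 0.29 did not pass (limma adjusted p = 0.142, 95% confidence interval −0.06 to 1.26). *Gli3* (GSMG0009455, mm10 chr13:15463235-15730026), which acts mainly as a repressor, had normalised counts of 109.9, 102 and 83.6 in controls and of 132, 108 and 189.9 in mutants (log2 fold change 0.51 ± 0.31, adjusted p = 0.24). It shares its strand with 6 unnamed genes, and how reads were assigned among them is not stated.

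**Figure D4:**
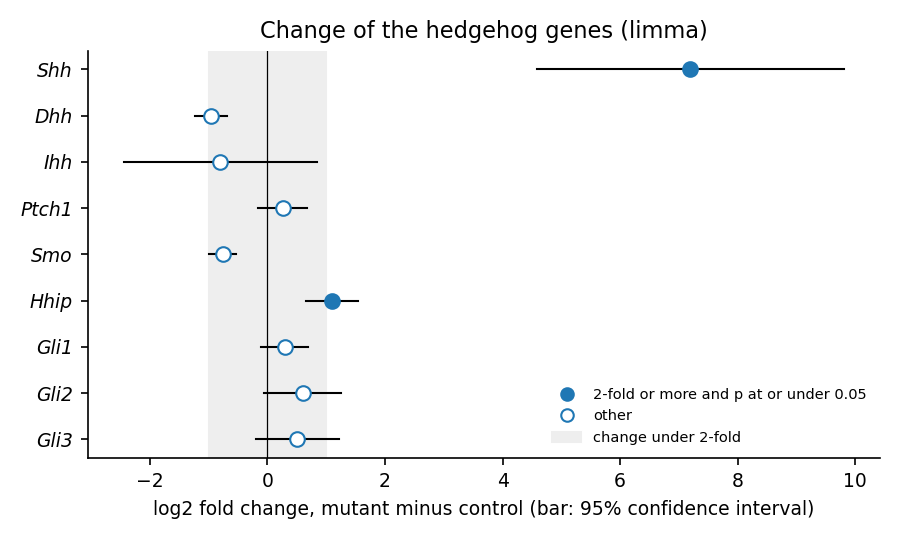
Log2 fold change (mutant minus control, limma) of the 9 hedgehog genes with 95% confidence intervals, the gray band marking changes under 2-fold and filled points the genes that passed the threshold. *Shh* stands apart at 7.19, *Hhip* is at 1.10, and the intervals of *Dhh* and *Smo* lie wholly below 0.

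Per kb of exon, *Dhh* had the highest level in controls (8667 ± 964), followed by *Gli1* (1681 ± 281), *Smo* (781 ± 47.4), *Hhip* (69.7 ± 17.6), *Ptch1* (43.7 ± 8.32), *Gli2* (19.96 ± 5.93), *Ihh* (10.6 ± 4.31), *Gli3* (10.3 ± 1.41) and *Shh* (2.89 ± 4.45) (SD, n = 3). The ranges of *Hhip* and *Ptch1*, of *Gli2* and *Ihh*, and of *Ihh* and *Gli3* overlapped, and *Shh* overlapped with *Ihh*. In mutants the order of levels per kb was *Dhh* (4473 ± 510.2), *Gli1* (2072 ± 425), *Smo* (462 ± 35.2), *Shh* (295 ± 303), *Hhip* (147 ± 12.9), *Ptch1* (52.1 ± 8.01), *Gli2* (29.3 ± 0.836), *Gli3* (15.0 ± 4.38) and *Ihh* (6.95 ± 4.54). *Shh* thus moved from the last to the fourth place, but its range among mutants, 109.9 to 644 per kb, took in those of both *Smo* and *Hhip*, and no other neighbours in that order overlapped. The reads were counted on constitutive regions whose lengths are not known here, so exon lengths only approximate these levels.

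The sequence before the start of transcription was read from RefSeq (GRCm38.p6, the same coordinates as mm10) for 7 of the 9 genes, all but *Shh* and *Gli1*. The Gli motif GACCACCCA, on either strand, lay in 0 of these 7 windows of 250 bases and in 0.253% of 32851 promoters. The GC box GGGCGG, on either strand, lay in 6 of the 7 and in 35.7% of all promoters. Both shares over all promoters were taken on the whole stored sequence, which may run past the 250 bases of the windows. With no match of the Gli motif in the 7 windows, the motifs did not overlap there. The windows of *Dhh*, the ligand gene with the highest value, and of *Hhip*, which rose in mutants, are shown 5′ to 3′ on the strand of the gene, with GC boxes in capitals.
Dhh, chr15:98898541-98898790, minus strand: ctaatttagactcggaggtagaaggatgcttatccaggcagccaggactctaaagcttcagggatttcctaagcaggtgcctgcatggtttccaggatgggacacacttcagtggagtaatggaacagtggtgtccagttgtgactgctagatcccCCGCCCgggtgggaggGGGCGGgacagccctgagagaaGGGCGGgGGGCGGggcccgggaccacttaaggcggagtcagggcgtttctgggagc
Hhip, chr8:80058009-80058258, minus strand: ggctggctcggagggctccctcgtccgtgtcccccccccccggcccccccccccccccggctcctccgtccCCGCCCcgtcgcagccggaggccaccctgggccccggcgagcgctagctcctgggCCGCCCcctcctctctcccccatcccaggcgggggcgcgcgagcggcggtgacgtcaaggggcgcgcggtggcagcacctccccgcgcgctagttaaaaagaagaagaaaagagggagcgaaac
The *Dhh* window held 4 GC boxes and the *Hhip* window 2, and both motifs are letter matches only.

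The wider hedgehog pathway was described by a list of 32 genes that make, release, bind or relay the signal, 31 of which were tested. Of these 31, 7 passed the threshold, 4 higher and 3 lower, or 22.6% against 24.2% of all genes, and their median log2 fold change was 0.01. At an adjusted p at or under 0.05 with no limit on size, 16 passed, 6 higher and 10 lower, against 35.0% of all genes. Among 6 genes for making and releasing ligand, 2 rose and 2 fell. *Disp2*, a relative of the ligand transporter *Disp1*, rose from 32.4 ± 8.06 to 152 ± 43.3 (SD, n = 3 each, log2 fold change 2.18), and *Scube3*, of a family of secreted carriers of the ligand, from 138 ± 59.5 to 783 ± 58.3 (2.59). *Disp1* itself fell from 2034 ± 233 to 1013 ± 353 (−1.06) and *Scube2* from 168 ± 37.3 to 69.7 ± 28.9 (−1.34). Without mutant replicate 2 both genes were still lower, at −0.78 and −0.94, but under 2-fold, and the change of *Disp1* was also under 2-fold after rescaling to the same total (−0.90) and in edgeR on recovered reads (−0.995).

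Of 3 further receptors and co-receptors, 2 rose. *Boc*, a co-receptor that presents the ligand to Patched, had normalised counts of 564, 464 and 482 in controls and of 1443, 1282 and 1060.3 in mutants, with no overlap (log2 fold change 1.32 ± 0.16, adjusted p = 0.000441). *Lrp2*, a large endocytic receptor, went from 46.6 ± 15.7 to 115 ± 46.0 (1.27, adjusted p = 0.0473) and lost its call without control replicate 2 (1.03) or mutant replicate 1 (0.96). Of 17 relay and Gli control genes, *Spop* alone passed, an adaptor for the breakdown of Gli proteins, which fell from 7534 ± 345 to 3412 ± 227 (SD, n = 3 each, log2 fold change −1.14, adjusted p = 5.46e-05), and was under 2-fold (−0.98) after rescaling to the same total. The kinase gene *Csnk1a1* had the highest value in the list, 28557 ± 863 and 30901 ± 786 (0.11, adjusted p = 0.292). *Mgrn1* was at −0.24, *Grk2* at 0.14 and *Prkaca*, a catalytic subunit of protein kinase A, at −0.29, all short of the threshold, though *Prkaca* had an adjusted p of 0.0351. None of 5 cilium genes reached 2-fold, but 3 had an adjusted p under 0.05, namely *Kif3a* (−0.79), *Ift172* (−0.42) and *Tulp3* (0.42), and the values of all 5 did not overlap between genotypes, against 35.0% and 49.2% of all genes. These 3 were named after their values were seen.

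Genes known from other tissues to respond to Gli factors were followed as a list of 17, of which 15 were tested and 9 passed the threshold, 6 higher and 3 lower, against 24.2% of all genes. At an adjusted p at or under 0.05, 7 of the 15 passed, 4 higher and 3 lower, against 35.0% of all genes. The median log2 fold change of the 15 was 0.58, and the values of 9 of the 15 did not overlap between genotypes, against 49.2% of all genes. Genes of forkhead factors known to act in mesenchyme moved both ways. *Foxf1* rose from 75.6 ± 20.7 to 299 ± 62.0 (SD, n = 3 each, log2 fold change 1.98), and *Foxf2* from 22.1 ± 16.3 to 173 ± 36.5 (3.12), whereas *Foxl1* fell from 389 ± 99.95 to 116 ± 15.4 (−1.71). The cell cycle gene *Ccnd2* rose from 772 ± 135 to 3546 ± 894 (2.18), but *Ccnd1* was at 11331 ± 976 and 11046 ± 1419 and changed sign with the scaling. *Mycn*, a growth regulator, fell from 2059 ± 390.1 to 834 ± 400.1 (−1.39), and *Fst*, which encodes the activin antagonist follistatin, from 6629 ± 565 to 3160.5 ± 328 (−1.07, and −0.91 after rescaling to the same total).

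*Bmp2*, which encodes a bone morphogenetic protein, went from 234 ± 171 to 564 ± 136 (SD, n = 3 each, log2 fold change 1.47, adjusted p = 0.0326), although control replicate 1 at 431 lay above mutant replicate 3 at 417. *Nkx3-2* (1.41, adjusted p = 0.0571) and *Snai1* (1.21, adjusted p = 0.0565) passed the threshold but not an adjusted p of 0.05. *Nkx3-2* lost its call without control replicate 1 (1.28), control replicate 2 (1.32), mutant replicate 1 (1.25) or mutant replicate 3 (1.09). *Snai1* lost its call without control replicate 2 (0.80), mutant replicate 1 (1.17) or mutant replicate 2 (1.02). Among those that did not pass, *Nr2f2* was at 0.25, *Foxc2* at 0.58 and *Bcl2* at −0.14, the latter changing sign with the scaling. *Grem1* was too low to test.

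**Figure D5:**
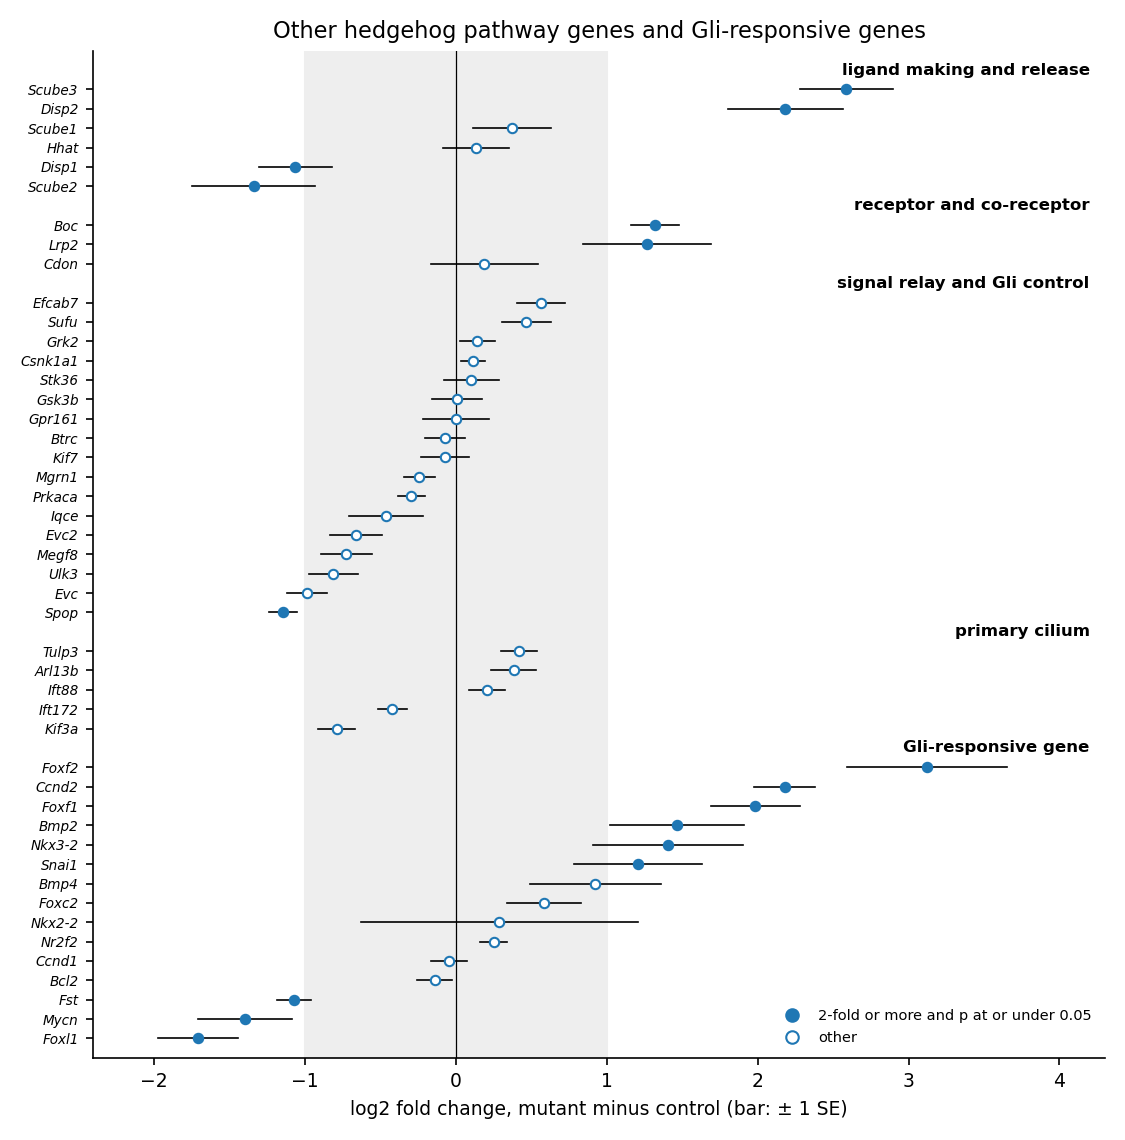
Log2 fold change (mutant minus control, limma) with its SE for the 31 tested pathway genes by role and for the 15 tested Gli-responsive genes, the gray band marking changes under 2-fold and filled points the genes that passed the threshold. All 3 receptor and co-receptor genes lie above 0, the other roles have points on both sides, and the Gli-responsive genes run from −1.71 (*Foxl1*) to 3.12 (*Foxf2*).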

How the data were processed

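Sciatic nerves of 3 control and 3 mutant mice at P4 were compared, with groups and replicate numbers taken from the sample labels. The authors mapped paired reads to mm10 with STAR 2.4.0, counted reads on constitutive regions of FAST DB genes and divided them by DESeq2 size factors, and the deposited table holds this signal per gene and library. Whether counting used the strand is not stated. Dividing by the value of 1 read gave whole numbers (within 0.01) for 100% of the values in each library. In mutant replicate 3 that value, 0.989, is so close to 1 that an automatic test of the step cannot decide, and its reads were recovered in the same way as the others. Of the 59485 genes, 35979 have no symbol. The table holds 0 columns of other samples.

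log2(value + 1) was fitted with limma 3.58.1 (lmFit, eBayes with trend) in R 4.3.3 on the 25802 genes with a mean of at least 10 in at least 1 genotype, as mutant minus control, with Benjamini-Hochberg adjustment over all of them. Fold changes are on this scale, and those of low genes depend on the added 1. The threshold was p of 0.05 or less before adjustment together with 2-fold. The count at an adjusted p with no limit on size was added after the values were seen. edgeR 4.0.16 (quasi-likelihood) called 5805 genes and DESeq2 1.42.0 called 6026 on the recovered reads. Other pseudocounts, filters, scalings, a call by adjusted p, a replicate block and each library left out were also tried. Exact permutation tests and Wilson intervals were computed with scipy 1.17.1, and figures with matplotlib 3.10.9. Scripts were tested on simulated data. Reads carry no molecular identifiers, so intervals and limits from a count of 0 cover counting error only. Reads were paired, and recovered counts of low genes were mostly even, for example 8, 8, 6, 24, 24 and 2 for *Nkx2-2*. Both mates of a pair may therefore have been counted as separate reads. The intervals and limits take reads as independent and would then be too narrow. Each library is a separate animal, so p-values measure the spread between animals.

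The members and gene lists were chosen with earlier results of these data known, and the study itself names *Shh* and *Gdnf* from these samples, so none of them is independent evidence. Named genes were the 9 members, the genes of both lists that passed, up to 4 of the best expressed that did not, *Adar*, *Gdnf*, marker genes by list, and the 5 genes with the profile nearest to *Shh* and to *Dhh*. The motifs were chosen after the data were seen. Some single genes are not reported here and were left out of the lists. *Gas1* and *Foxd1* were not analysed here, and *Grk2* was matched under its older symbol *Adrbk1*. Exon lengths and transcripts came from GENCODE vM21, and promoters from RefSeq.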

Additional observations from a re-analysis of the deposited data

How the results depend on the processing

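Besides the fit described, 12 settings were run, and each of the 6 libraries was dropped once. None of the 9 hedgehog genes changed direction. *Shh* passed the threshold throughout, at 6.18 to 8.46 with a library left out. Its change minus that of *Dhh* ran from 7.22 to 9.34 with a library left out and from 6.23 to 9.45 over the 3 settings in which this difference was computed. *Dhh* passed 2-fold when the libraries were rescaled to the same 75th percentile (-1.02), and ran from -1.04 to -0.88 with a library left out. *Hhip* ran from 0.89 to 1.27 and the number of hedgehog genes past the threshold from 1 to 3, the lowest without control replicate 3. With a library left out, 6 to 8 pathway genes, 7 to 9 Gli-responsive genes and 5743 to 6334 genes in all passed. Rescaling to the same total moved the median of all genes from 0.03 to 0.19 and the share of higher genes among those past the threshold from 57.3% to 66.2%, and it turned *Ccnd1* to 0.12 and *Bcl2* to 0.024. With a library left out, *Ccnd1* ran from -0.12 to 0.068, above 0 without mutant replicate 2. A mean of at least 50 left 4706 genes past the threshold and did not test *Ihh*. Whether same-numbered animals were paired could not be decided. The sample labels number them consecutively, mutant then control, within each replicate number. Deviations of same-numbered libraries from their group means had correlations of -0.06, -0.06 and 0.01. Centring each group of 3 on its mean forces such correlations to average near 0, so these values cannot exclude pairing. With a replicate block, *Shh* was at 7.19, *Dhh* at -0.95 and *Shh* minus *Dhh* at 8.15, and 2 hedgehog, 7 pathway, 9 Gli-responsive and 6149 genes in all passed. With 3 animals per genotype no exact permutation test could go below 0.1. Values under about 3 reads per library, such as those of *Shh* in control replicates 1 and 2, limit how well a fold change is known.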
